A study of Homo sapiens with 4 samples.

Results

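The 51 genes described here encode the proteins that license, fire and copy replication origins, together with the enzymes that supply deoxynucleotides and the factors that rebuild chromatin behind the fork. They were chosen by function, from a written list drawn up with earlier results of these data known. All 51 were matched by symbol among the 58735 gene identifiers deposited for each library. HCT116, a human colorectal carcinoma cell line, was transfected with a control small interfering RNA (siRNA) or with siRNA against KIF26B, a kinesin family member, and RNA was collected after 48 h. The groups held 2 control siRNA libraries and 2 KIF26B siRNA libraries, all from the same parental line, which received no other agent according to the labels. The comparison asked which transcripts differed once KIF26B was targeted. The paper describes 2 independent KIF26B siRNAs in HCT116, and which went into each KIF26B siRNA library is not given in the sources used here. Although the methods speak of biological replicates for the study in general, nothing says that these particular libraries came from separate cultures. The spread within a group may thus be technical. Between the KIF26B siRNA libraries it may also be a difference between siRNAs, and these cannot be told apart.

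Replication begins when the origin recognition complex, CDC6 and CDT1 load the MCM2-7 helicase on DNA in G1. In S phase CDC45 and the GINS complex turn the loaded helicase on, primase and DNA polymerase α lay down primers, and polymerases δ and ε extend them while held by the PCNA clamp. Ribonucleotide reductase, thymidylate synthase and thymidine kinase keep up the deoxynucleotide pools. Many of these genes are transcribed in late G1 and S phase under E2F transcription factors, so their summed RNA is widely read as a sign of how many cells of a culture are in cycle. In RNA from a bulk culture, fewer cells in a phase and less RNA per cell cannot be told apart.

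The deposited unit is FPKM, in which fragment counts are divided by the exon length of the gene and by the size of the library. The steps between low values give the divisors by which the libraries were scaled, 19629581 and 24673739 fragments for the control siRNA replicates 1 and 2 and 21363618 and 18068934 fragments for the KIF26B siRNA replicates 1 and 2. These divisors are not the sums of reads on genes, since the reads recovered for KIF26B siRNA replicate 2 came to 18707428. Of the 51 genes, 50 reached a mean of 1 FPKM and were tested, and RNASEH2A did not. Each tested gene had at least 132 reads in every library, and the lowest count of a gene had a median of 738.5 reads, both as lower bounds recovered from the steps between FPKM values. KIF26B itself was close to the detection limit, at 0.110 and 0.205 FPKM in the control libraries, 0.140 FPKM in KIF26B siRNA replicate 1 and 0.0307 FPKM in replicate 2, which rest on 31, 73, 43 and 8 reads. For the targeted gene, replicate 1 of that group thus had a value between those of the controls, and the main counts over the replication genes and the related lists are also given without it. Mitochondrial genes held 25.5% and 25.4% of the summed FPKM in the controls, 32.8% in KIF26B siRNA replicate 1 and 26.0% in replicate 2, and the part of this in the results was not tested. Epithelial markers were present, with KRT19 between 842 and 951 FPKM and EPCAM between 77.0 and 98.6 FPKM, although the intestinal marker VIL1 was at most 0.0368 FPKM. Of 11 markers of fibroblasts, leukocytes, endothelium and hepatocytes, 4, 4, 5 and 5 were listed at 0 in the libraries in the same order, and COL1A1, at 4.74 to 8.69 FPKM, was the only marker above 0.37 FPKM.

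As a whole, the replication genes were expressed at a lower level in both KIF26B siRNA libraries. Their summed level was 1338 and 1346 FPKM in the controls, 891 FPKM in KIF26B siRNA replicate 1 and 1008 FPKM in replicate 2. Taken as a share of all FPKM outside the mitochondrial genome, they made up 0.580% and 0.575% of the controls against 0.389% and 0.399% of the KIF26B siRNA libraries, so the groups did not overlap on either scale. The median log2 difference in FPKM + 1 (KIF26B siRNA minus control siRNA) over the 50 genes was -0.37, with a range of -0.99 to -0.03, against a median of -0.01 over all 14523 genes tested. All 50 tested genes had a negative difference, as did 7490 of all 14523 genes tested. Among the 50, the difference was negative for 42 without the library labelled KIF26B siRNA replicate 1 and for 48 without replicate 2.

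Since the list was drawn up with earlier results of these data known, its counts describe the list and are no separate test of it. In the limma fit across all genes, 27 of the 50 (54%) were lower at an unadjusted p under 0.05, where 8.68% of all genes tested were. None was higher at that threshold, against 7.74% of all genes. After Benjamini-Hochberg adjustment over all genes tested, 0 replication genes passed 0.05, and the background was 0% as well, with the lowest adjusted p of a replication gene at 0.242 in limma and, on recovered reads, 0.151 in limma-voom. The limma-voom fit counted 29 lower and 0 higher at an unadjusted p under 0.05, with 10.1% of all genes lower in that fit. In the main limma fit, no replication gene combined an unadjusted p under 0.05 with a log2 difference beyond 1. That result depended on the 1 added to FPKM. CLSPN was at -1.13 in limma-voom (unadjusted p = 0.00038) and at -1.11 in limma with 0.1 added instead (unadjusted p = 0.00134). For 39 of the 50 (78%), both KIF26B siRNA values lay below both control values, against 27.8% of all genes, and for none did both lie above, against 24.9%. The 2 against 2 design cannot give an exact two-sided permutation p below 0.333 for a single gene.

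These counts depended on individual libraries. Without the library labelled KIF26B siRNA replicate 1, 32 replication genes were lower at an unadjusted p under 0.05 and 2, ORC6 and RRM2, were higher, with 23.7% and 22.9% of all genes on each side. In that fit 17 replication genes passed an adjusted p of 0.05, against 17.3% of all genes. Its spread came from the 2 control libraries alone, which for these genes were a median of 0.0471 apart on the log2 scale, whereas the KIF26B siRNA libraries were 0.19 apart. Without KIF26B siRNA replicate 2 the lower count was 42, beside 22.4% of all genes. Without control siRNA replicate 1 or 2 it was 6 or 7, beside 1.67% and 1.61% of all genes.

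**Figure D1:**
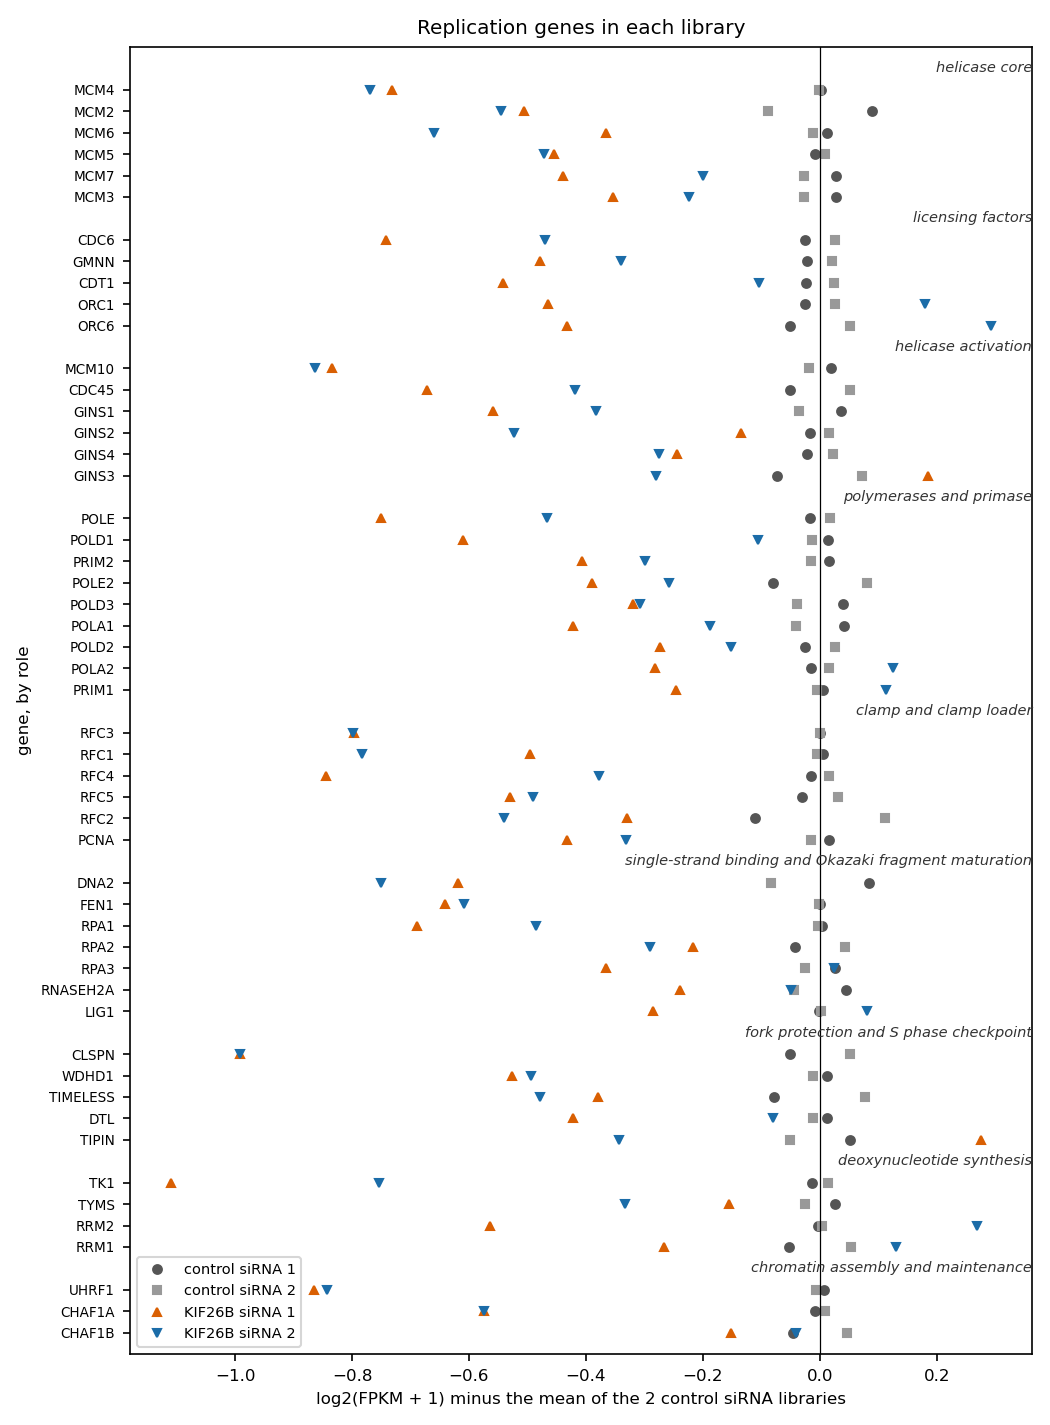
Each row is a replication gene, ordered within its role by the log2 difference, and each point is a library, placed by its log2(FPKM + 1) minus the mean of the 2 control siRNA libraries. Both KIF26B siRNA libraries lie left of both controls for 39 of the 50 genes tested, beside 27.8% of all genes. For 9 genes they lie on opposite sides of the controls, a pattern not counted over all genes.

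To show what these genes share in sequence, the 250 bases before each annotated start were read from RefSeq promoters (GRCh38.p14). Of the 51 genes, 44 were in that table, and MCM4, MCM5, GINS4, POLD3, RPA2, RPA3 and DNA2 were not. E2F-type letters (TTTCCCGC, TTTCGCGC, TTTGCCGC or TTTGGCGC on either strand, overlaps allowed) were present for 16 of 44 genes (36.4%), against 3.4% of the 27305 genes in the table. Per promoter, 17 of 57 held them (29.8%), against 2.79% of 35116. The CCAAT box, a site of the nuclear factor Y complex, was present on either strand for 29 of 44 genes (65.9%), against 37% of all genes. It was not particular to them, since 86.2% of the mitotic genes described below held it. The shares were 50% for other replication factors and 41.7% for other nucleotide synthesis genes. E2F-type letters were present for 10.3%, 19.2% and 8.33% of the genes in these 3 lists, in the same order. Median GC content was 67.2% for the replication promoters and 58% for all promoters. Genes lower at an unadjusted p under 0.05 held E2F-type letters in 6 of 23 cases (26.1%), and the other replication genes did in 10 of 21 (47.6%). A match is a description of the letters and says nothing on binding in these cells.

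The last 150 bases before the start are shown for 6 genes, 5′ to 3′ on the gene's strand and with coordinates on GRCh38.p14, in lower case with E2F-type and CCAAT letters in capitals. CLSPN and MCM10 were among the 4 genes with the lowest log2 differences and held only CCAAT letters (ATTGG on the printed strand is CCAAT on the other). RFC3 and MCM6 were lower and held E2F-type letters, which in MCM6 run into each other on both strands at 2 places, the first beginning just before the stretch shown. LIG1 and POLA2 also held E2F-type letters, while their KIF26B siRNA libraries lay on opposite sides of the controls.
CLSPN (chr1:35769979-35770128, minus strand): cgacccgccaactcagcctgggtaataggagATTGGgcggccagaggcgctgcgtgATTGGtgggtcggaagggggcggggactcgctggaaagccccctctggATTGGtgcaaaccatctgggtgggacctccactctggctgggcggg
MCM10 (chr10:13161408-13161557, plus strand): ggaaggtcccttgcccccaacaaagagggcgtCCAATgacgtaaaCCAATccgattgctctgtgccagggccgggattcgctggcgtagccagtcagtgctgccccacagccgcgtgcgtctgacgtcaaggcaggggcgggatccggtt
RFC3 (chr13:33817999-33818148, plus strand): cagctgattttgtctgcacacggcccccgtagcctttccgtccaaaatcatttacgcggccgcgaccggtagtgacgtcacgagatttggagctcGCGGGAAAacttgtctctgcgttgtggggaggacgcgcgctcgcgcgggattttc
MCM6 (chr2:135876444-135876593, minus strand): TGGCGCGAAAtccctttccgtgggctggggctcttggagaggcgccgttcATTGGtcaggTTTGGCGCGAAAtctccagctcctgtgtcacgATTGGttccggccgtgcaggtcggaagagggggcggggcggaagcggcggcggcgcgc
LIG1 (chr19:48170345-48170494, minus strand): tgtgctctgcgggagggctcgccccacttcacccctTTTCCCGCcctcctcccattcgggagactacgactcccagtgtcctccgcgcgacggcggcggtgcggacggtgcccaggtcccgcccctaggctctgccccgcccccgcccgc
POLA2 (chr11:65261812-65261961, plus strand): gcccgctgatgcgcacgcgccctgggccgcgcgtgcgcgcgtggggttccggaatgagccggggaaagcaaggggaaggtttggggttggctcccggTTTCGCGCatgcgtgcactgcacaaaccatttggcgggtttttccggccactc

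The MCM2-7 helicase, which unwinds DNA ahead of the fork, was lower in every subunit. Both KIF26B siRNA values lay below both controls for 6 of 6 subunits, beside 27.8% of all genes tested. At an unadjusted p under 0.05, 4 of 6 were lower, beside 8.68% of all genes, and the median log2 difference was -0.49. MCM4 had 38.6 and 38.5 FPKM in the controls and 22.8 and 22.2 FPKM with KIF26B siRNA, a log2 difference of -0.75 (SE 0.11, limma adjusted p = 0.242). MCM2 had 27.9 and 24.5 FPKM against 18.1 and 17.6 FPKM (-0.53, SE 0.12, limma adjusted p = 0.248). MCM6 had 34.4 and 33.9 FPKM against 26.3 and 21.2 FPKM (-0.51, SE 0.15, limma adjusted p = 0.272). In each of these the libraries of a group were closer to each other than to the other group. MCM5 stood at 19.7 and 19.9 FPKM against 14.1 and 14.0 FPKM. MCM7, the most abundant subunit, had 84.9 and 81.6 FPKM against 61.1 and 72.3 FPKM and, with MCM3 (45.8 and 44.1 against 34.9 and 38.3 FPKM), did not pass the unadjusted threshold. The order of the control levels was MCM7, MCM3, MCM4, MCM6, MCM2 and MCM5, and no 2 neighbours overlapped between the control libraries. An unnamed antisense gene overlaps 23.6% of the annotated exon bases of MCM2, and whether strand was used in counting is not stated.

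The factors that load the helicase were split. CDC6, an ATPase that helps to load the helicase, had 21.9 and 22.7 FPKM in the controls and 13.0 and 15.8 FPKM with KIF26B siRNA (-0.61, SE 0.15, limma adjusted p = 0.248). GMNN, encoding geminin, which blocks CDT1 after S phase begins, had 17.9 and 18.5 FPKM against 12.8 and 14.2 FPKM (-0.41, SE 0.12, limma adjusted p = 0.272). These 2 of the 5 passed the unadjusted threshold, beside 8.68% of all genes lower at it. For each, both KIF26B siRNA values were under the controls, as for 27.8% of all genes. CDT1, the other loading factor, was at 33.4 and 34.5 FPKM against 23.0 and 31.5 FPKM. The origin recognition subunits ORC1 and ORC6 lay below the controls in KIF26B siRNA replicate 1 and above them in replicate 2. ORC1 had 9.59 and 9.96 FPKM in the controls, then 6.81 and 11.2 FPKM. ORC6 had 8.11 and 8.78 FPKM, then 5.996 and 10.6 FPKM. The group medians of the log2 difference were -0.48 for replicate 1 and -0.10 for replicate 2.

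Among the factors that activate the helicase, MCM10 (ENSG00000065328, chr10:13203558-13253110 of GRCh37, plus strand), which joins the assembling fork before unwinding, had the lowest log2 difference. It was at 11.9 and 11.5 FPKM in the controls and 6.12 and 5.98 FPKM with KIF26B siRNA (-0.85, SE 0.11, limma adjusted p = 0.242), and the 2 KIF26B siRNA libraries were closer to each other than the controls were. CDC45, a helicase cofactor, had 11.7 and 12.6 FPKM against 7.25 and 8.83 FPKM (-0.55, SE 0.14, limma adjusted p = 0.258). GINS1 had 13.9 and 13.2 FPKM against 8.88 and 10.2 FPKM (-0.47, SE 0.13, limma adjusted p = 0.258). The log2 differences of the other subunits of the GINS tetramer were -0.33 for GINS2, -0.26 for GINS4 and -0.05 for GINS3. Subunits were not tested against each other. GINS2 stood at 10.8 and 11.1 FPKM against 9.90 and 7.32 FPKM, and GINS4 at 4.35 and 4.52 FPKM against 3.58 and 3.49 FPKM, neither past the unadjusted threshold. GINS3, the least abundant at 1.81 and 2.10 FPKM in the controls, had 2.36 FPKM in KIF26B siRNA replicate 1 and 1.43 FPKM in replicate 2. Exons of other annotated genes overlap 23.4% of GINS4 and 10.9% of GINS3 exon bases, each on the opposite strand.

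Of the 9 polymerase and primase genes, 7 had both KIF26B siRNA values below both controls, beside 27.8% of all genes. The unadjusted threshold was passed by 3 of the 9, beside 8.68% of all genes lower at it. POLE, the catalytic subunit of the leading-strand polymerase ε, had 13.8 and 14.2 FPKM against 7.90 and 9.83 FPKM (-0.61, SE 0.15, limma adjusted p = 0.248), and its partner POLE2 had 6.72 and 7.63 FPKM against 5.23 and 5.82 FPKM. PRIM2, the large primase subunit, had 11.0 and 10.8 FPKM against 7.96 and 8.66 FPKM (-0.35, SE 0.11, limma adjusted p = 0.286), although PRIM2BP, an annotated gene on the same strand, shares 12.9% of its exon bases. POLD3, an accessory subunit of polymerase δ, had 3.88 and 3.62 FPKM against 2.80 and 2.83 FPKM (-0.31, SE 0.11, limma adjusted p = 0.301). Catalytic and accessory subunits of the same enzyme stood at different distances from the controls, which were not tested against each other. POLD1, the catalytic subunit of polymerase δ, was at 18.8 and 18.4 FPKM against 11.8 and 17.2 FPKM, far lower in replicate 1. POLD2 was at 48.8 and 50.7 FPKM against 41.0 and 44.7 FPKM, and POLA1, the catalytic subunit of polymerase α, at 6.76 and 6.34 FPKM against 4.63 and 5.63 FPKM. The small primase subunit PRIM1 (8.47 and 8.40, then 6.95 and 9.20 FPKM) and the polymerase α subunit POLA2 (1.601 and 1.66, then 1.16 and 1.87 FPKM) lay under the controls in replicate 1 and over them in replicate 2. Other annotated genes share 19.1% of PRIM1 exon bases, on both strands, and 16.8% of POLA2 exon bases, on the same strand.

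The sliding clamp and its loader were the only role in which every gene passed the unadjusted threshold, 6 of 6. Of all genes, 8.68% were lower at it, and the median log2 difference of the role was -0.56. PCNA, the clamp that tethers polymerases to DNA, had 140.4 and 137 FPKM in the controls and 103 and 110.1 FPKM with KIF26B siRNA (-0.38, SE 0.11, limma adjusted p = 0.273). RFC1 to RFC5 encode the loader that opens PCNA. RFC3 (ENSG00000133119, chr13:34392206-34540695 of GRCh37, plus strand) was the most even, at 14.92 and 14.93 FPKM against 8.18 and 8.17 FPKM (-0.80, SE 0.11, limma adjusted p = 0.242). RFC1 had 17.5 and 17.4 FPKM against 12.1 and 9.71 FPKM (-0.64, SE 0.15, limma adjusted p = 0.248). RFC4 had 20.6 and 21.0 FPKM against 11.1 and 15.8 FPKM (-0.61, SE 0.20, limma adjusted p = 0.284). All 5 loader subunits were under the controls in both libraries, beside 27.8% of all genes. Replicate 1 was the lower library for RFC4 and replicate 2 for RFC1. RFC5 had 25.3 and 26.4 FPKM against 17.6 and 18.1 FPKM (-0.51, SE 0.11, limma adjusted p = 0.242), and annotated genes on the opposite strand overlap 10.65% of its exon bases. RFC2 had 16.8 and 19.8 FPKM against 14.3 and 12.2 FPKM (-0.44, SE 0.15, limma adjusted p = 0.299). The control levels of the loader subunits were within a narrow range of 14.9 to 26.4 FPKM, well under PCNA.

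**Figure D2:**
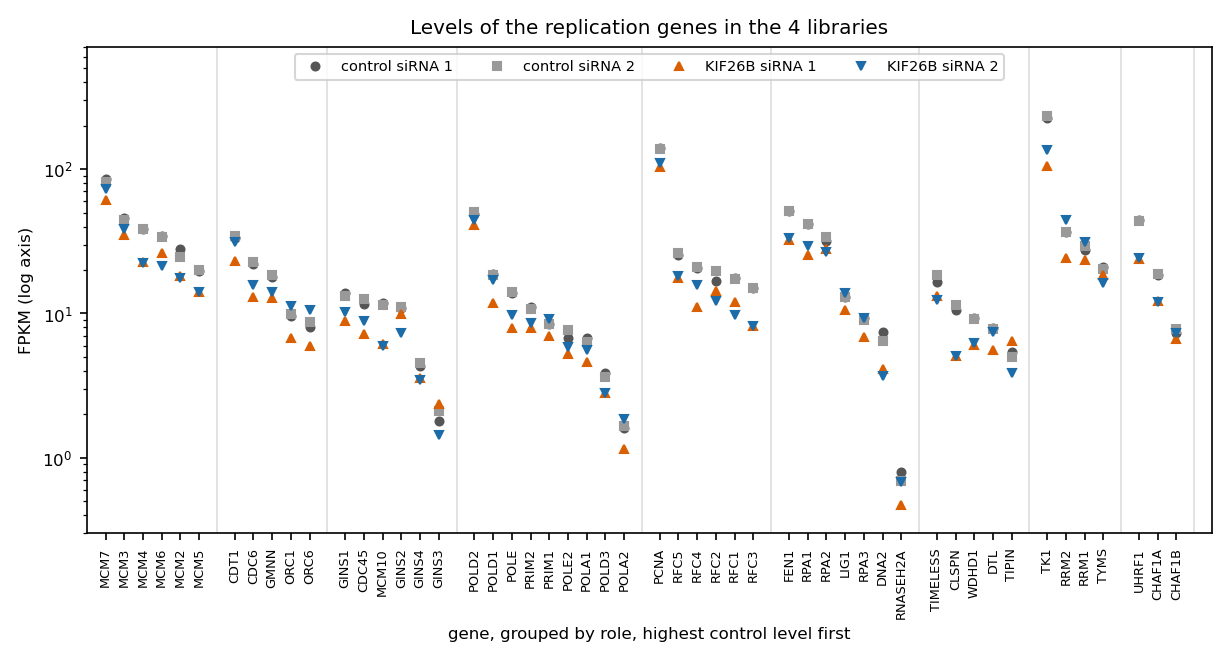
Points are FPKM in each of the 4 libraries on a log axis, with genes grouped by role and ordered by control level. TK1, PCNA and MCM7 had the highest control levels, and POLA2, GINS3 and RNASEH2A the lowest.

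The lagging strand is covered by replication protein A and then processed by nucleases and a ligase. FEN1, the flap endonuclease, had 51.09 and 51.03 FPKM against 32.4 and 33.1 FPKM (-0.62, SE 0.11, limma adjusted p = 0.242). DNA2, a helicase and nuclease for long flaps, had 7.39 and 6.47 FPKM against 4.15 and 3.71 FPKM (-0.68, SE 0.13, limma adjusted p = 0.242). RPA1, the large subunit of replication protein A, had 41.6 and 41.3 FPKM against 25.3 and 29.3 FPKM (-0.59, SE 0.13, limma adjusted p = 0.243). These 3 of the 6 tested passed the unadjusted threshold, beside 8.68% of all genes lower at it. The smaller subunits stood closer to the controls, RPA2 at 31.8 and 33.8 FPKM against 28.1 and 26.6 FPKM and RPA3 at 9.35 and 8.99 FPKM against 6.89 and 9.33 FPKM. LIG1, the ligase that seals Okazaki fragments, had 13.0 FPKM in each control, 10.5 FPKM in KIF26B siRNA replicate 1 and 13.8 FPKM in replicate 2. RNASEH2A, the catalytic subunit of ribonuclease H2, was untested at 0.797 and 0.689 FPKM against 0.475 and 0.683 FPKM, and THSD8 on the same strand shares 53.3% of its exon bases.

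CLSPN (ENSG00000092853, chr1:36185819-36235579 of GRCh37, minus strand), encoding claspin, which carries the ATR signal to CHK1 and helps forks to move, had the lowest log2 difference of all 50 genes. It had 10.6 and 11.5 FPKM in the controls and 5.05 FPKM in each KIF26B siRNA library, 45.8% of the control mean (-0.99, SE 0.11, limma adjusted p = 0.242). WDHD1, which links the helicase to polymerase α, had 9.30 and 9.12 FPKM against 6.08 and 6.25 FPKM (-0.51, SE 0.11, limma adjusted p = 0.242). TIMELESS had 16.6 and 18.6 FPKM against 13.3 and 12.3 FPKM (-0.43, SE 0.13, limma adjusted p = 0.272). TIPIN, whose protein pairs with that of TIMELESS at the fork, did not follow it, with 5.42 and 4.97 FPKM in the controls, 6.49 FPKM in replicate 1 and 3.88 FPKM in replicate 2. RPL9P25 on the same strand shares 21.1% of TIPIN exon bases. DTL, the substrate receptor that directs CDT1 to degradation on PCNA, was at 7.94 and 7.79 FPKM against 5.62 and 7.39 FPKM.

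Of the 4 deoxynucleotide genes, TK1 alone passed the unadjusted threshold, beside 8.68% of all genes lower at it. TK1 (ENSG00000167900, chr17:76170172-76183314 of GRCh37, minus strand), the S phase thymidine kinase of the salvage pathway, was the most abundant replication gene, with 227 and 231 FPKM in the controls, 106 FPKM in KIF26B siRNA replicate 1 and 136 FPKM in replicate 2 (-0.93, SE 0.17, limma adjusted p = 0.242). Its difference in FPKM was the largest part of the difference in summed level given above. Ribonucleotide reductase behaved otherwise. RRM2, its S phase subunit, had 36.4 and 36.6 FPKM in the controls, 24.4 FPKM in replicate 1 and 44.2 FPKM in replicate 2. The rate ratios to the pooled controls were 0.667 (95% interval 0.639 to 0.696) and 1.21 (1.17 to 1.26), intervals that cover counting error only. RRM1, the constitutive subunit, was split in the same way, at 27.4 and 29.5 FPKM, then 23.5 and 31.2 FPKM. TYMS, thymidylate synthase, had 21.0 and 20.2 FPKM against 18.4 and 16.2 FPKM, while ENOSF1 and TYMSOS on the opposite strand overlap 47.9% of its exon bases.

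UHRF1 (ENSG00000276043, chr19:4903092-4962165 of GRCh37, plus strand), which recruits the maintenance DNA methyltransferase to newly copied DNA, had 44.3 and 43.8 FPKM in the controls and 23.7 and 24.1 FPKM with KIF26B siRNA (-0.85, SE 0.11, limma adjusted p = 0.242). CHAF1A, the large subunit of chromatin assembly factor 1, had 18.4 and 18.6 FPKM against 12.11 and 12.10 FPKM (-0.57, SE 0.11, limma adjusted p = 0.242). Its partner CHAF1B overlapped the controls, with 7.28 and 7.83 FPKM against 6.69 and 7.31 FPKM. The 2 subunits of the complex were not tested against each other.

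The KIF26B siRNA libraries were then set against the controls separately. Replicate 1 was below both controls for 48 of the 50 genes, against 45.8% of all genes, and above both for 2, against 41.1%. Replicate 2 was below both for 41, against 44.8%, and above both for 7, against 44%. The median log2 difference was -0.45 in replicate 1 and -0.34 in replicate 2, beside -0.02 and -0.005 over all genes tested. The 7 genes under the controls in replicate 1 and over them in replicate 2 were ORC1, ORC6, POLA2, PRIM1, LIG1, RRM1 and RRM2, and GINS3 and TIPIN had the opposite pattern. For 15 genes the 2 libraries were within 0.1 of each other on the log2 scale, among them CLSPN, MCM10, MCM4, UHRF1, RFC3, FEN1 and CHAF1A. For 13 genes replicate 1 was lower than replicate 2 by over 0.3, and for 3 (GINS2, GINS3 and TIPIN) it was higher by that much. With 1 library on each side, these differences were not tested. The counts by distance and by opposite sides are not given over all genes, so whether they are particular to these genes is open. The median gap between the KIF26B siRNA libraries was 0.19 over the replication genes and 0.28 over all genes tested.

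**Figure D3:**
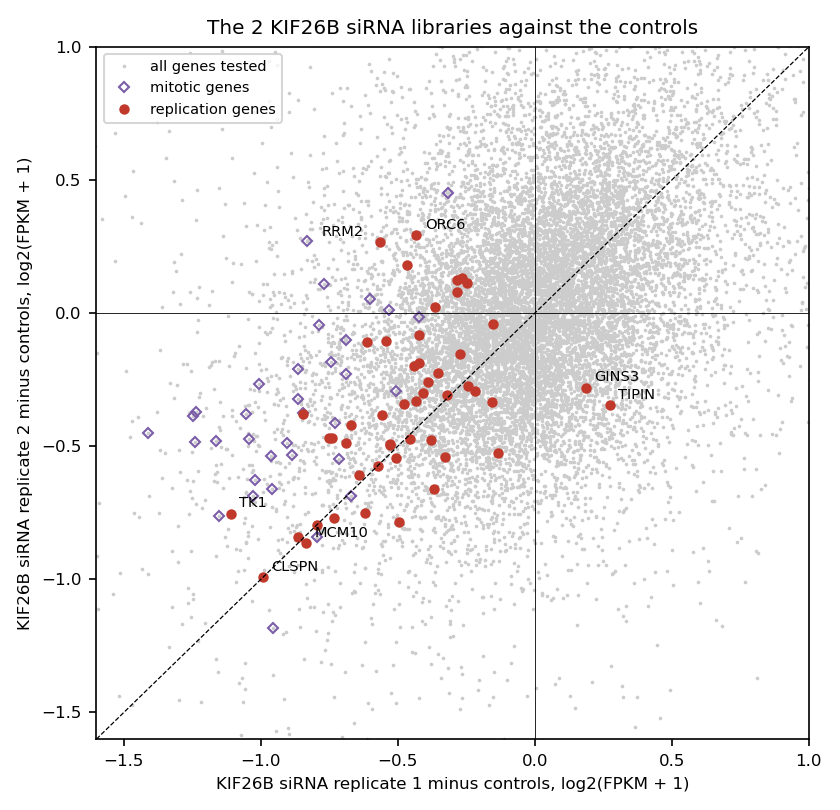
Each point is a gene, placed by the log2(FPKM + 1) difference of KIF26B siRNA replicate 1 (horizontal axis) and replicate 2 (vertical axis) from the mean of the controls, with equality dashed. Of all genes tested, 613 lie outside the range drawn of -1.6 to 1. Of the 50 replication genes, 41 lie below both controls in replicate 2 and 48 in replicate 1, with CLSPN at the lower left. Over all genes tested these shares were 44.8% and 45.8%.

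Genes next to these in function differed in how far they followed. Of 32 other replication factors, 12 (37.5%) were lower and 0 higher at an unadjusted p under 0.05, beside 8.68% and 7.74% of all genes, and their median log2 difference was -0.31. Without KIF26B siRNA replicate 1 these counts were 19 and 4, beside 23.7% and 22.9% of all genes. ASF1B, a histone chaperone, had 45.6 and 43.98 FPKM in the controls and 22.1 and 26.8 FPKM with KIF26B siRNA (-0.85, SE 0.14, limma adjusted p = 0.242). MCM8, a helicase of recombination, had 7.23 and 7.33 FPKM against 3.53 and 3.75 FPKM. DSCC1, of the alternative clamp loader, had 14.6 and 15.0 FPKM against 9.69 and 6.995 FPKM. POLD4, the smallest polymerase δ subunit, chosen after its values were seen, was at 3.46 and 4.97 FPKM in the controls and 6.06 and 11.9 FPKM with KIF26B siRNA (0.88, SE 0.36, limma adjusted p = 0.330), and an unnamed gene on the same strand shares 21.3% of its exon bases.

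The other 29 nucleotide synthesis genes, which hold the de novo purine and pyrimidine pathways, had a median log2 difference of 0.004, but the libraries went opposite ways, with a median of 0.13 in replicate 1 and -0.18 in replicate 2. At an unadjusted p under 0.05, 6 (20.7%) were lower and 0 higher, beside 8.68% and 7.74% of all genes, and without replicate 1 the counts were 12 and 2, beside 23.7% and 22.9%. Both KIF26B siRNA values were below both controls for 8 and above both for 7, shares close to the 27.8% and 24.9% of all genes. The genes named by size act on deoxynucleosides or their phosphates. DCK, deoxycytidine kinase, had 15.6 and 14.7 FPKM against 6.73 and 9.79 FPKM (-0.82, SE 0.20, limma adjusted p = 0.248). SAMHD1, which breaks down deoxynucleotides, had 3.71 and 4.03 FPKM against 2.24 and 1.76 FPKM. DTYMK, thymidylate kinase, had 31.5 and 31.3 FPKM against 19.9 and 20.9 FPKM.

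Of 22 genes that control entry into S phase, 6 (27.3%) were lower and 2 higher at an unadjusted p under 0.05, with a median log2 difference of -0.26. The background was 8.68% lower and 7.74% higher, so the higher count was close to that of all genes. Without KIF26B siRNA replicate 1 the counts were 10 and 4, beside 23.7% and 22.9%. CCND1, cyclin D1, had 358 and 361 FPKM in the controls, 107 FPKM in KIF26B siRNA replicate 1 and 187 FPKM in replicate 2 (-1.34, SE 0.30, limma adjusted p = 0.247). E2F7, a repressor of the E2F family, had 11.0 and 11.1 FPKM against 4.25 and 6.44 FPKM, and MYBL2, a cell-cycle transcription factor, had 41.4 and 41.6 FPKM against 24.8 and 25.3 FPKM. The 2 higher genes, chosen after their values were seen, were CDKN1A and TFDP2. CDKN1A, the p21 inhibitor of cyclin-dependent kinases, had 206 and 211 FPKM against 268 and 318 FPKM (0.48, SE 0.14, limma adjusted p = 0.271). TFDP2, an E2F dimer partner, had 6.32 and 6.15 FPKM against 8.83 and 8.68 FPKM (0.43, SE 0.11, limma adjusted p = 0.252).

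Mitotic genes, which peak after S phase, had a median further from the controls than the replication genes did, chiefly in replicate 1. Of 35 listed, 34 were tested, 17 (50%) were lower and 0 higher at an unadjusted p under 0.05, beside 8.68% and 7.74% of all genes. Without replicate 1 the counts were 24 and 2, beside 23.7% and 22.9%. The median log2 difference was -0.66, made up of -0.87 in replicate 1 and -0.38 in replicate 2. The kinetochore gene SPC25 had 16.0 and 17.5 FPKM against 8.16 and 6.82 FPKM (-1.07, SE 0.14, limma adjusted p = 0.242). ECT2, needed for cytokinesis, had 30.9 and 29.5 FPKM against 13.0 and 17.4 FPKM. NUF2, also of the kinetochore, had 16.5 and 16.4 FPKM against 6.38 and 11.4 FPKM. The difference between the lists was not tested. Of 7 epithelial markers tested, 4 had a negative and 3 a positive log2 difference, and without replicate 1 the signs were 4 and 3 as well. Lower at an unadjusted p under 0.05 were 2 (28.6%, beside 8.68% of all genes), KRT8 (485 and 482 against 369 and 350.1 FPKM) and KRT18 (245 and 243 against 175 and 168 FPKM), which overlap each other on opposite strands, and none was higher. Without replicate 1, 3 were lower and 2 higher. CLDN7, a tight junction claudin chosen after its values were seen, was above the controls, at 55.0 and 52.3 FPKM against 63.1 and 134 FPKM (0.77). The summed level of the 8 markers was 1736 and 1748 FPKM in the controls and 1626 and 1724 FPKM with KIF26B siRNA.

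**Figure D4:**
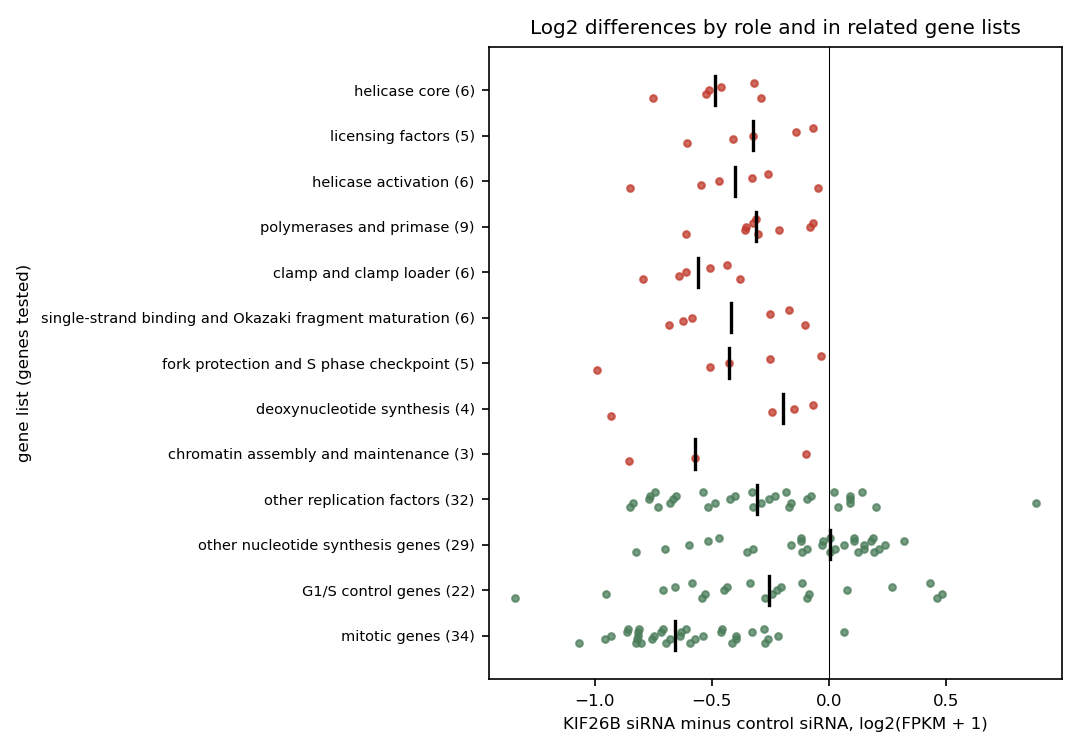
Points are genes tested, placed by the log2(FPKM + 1) difference between the KIF26B siRNA and control siRNA groups, with replication genes in red, related lists in green and the median of each list as a bar. The medians run from -0.57 to -0.20 over the replication roles, and stand at -0.66 for mitotic genes and 0.004 for other nucleotide synthesis genes, for which replicate 1 was at 0.13 and replicate 2 at -0.18.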

How the data were processed

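Poly(A) RNA of HCT116 cells was sequenced as paired-end reads in 4 libraries, grouped by the sample labels. The FPKM values deposited by the authors give 1 value per gene identifier and library, a unit recognised from their steps. The study's methods name hg19, HISAT2 and DESeq2, whereas the submitters' processing notes name hg38, HISAT2 2.0.5 and featureCounts 1.5.0-p3, so the build of the counts is unsettled. Gene symbols and exon overlaps came from GENCODE annotation of GRCh37 (56513 of 58735 identifiers matched) and promoters from RefSeq on GRCh38.p14.

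Expression was tested with limma 3.58.1 (R 4.3.3) on log2(FPKM + 1), without covariates, for the 14523 genes whose mean reached 1 FPKM. Variances were moderated by empirical Bayes, and p-values were adjusted by the Benjamini-Hochberg method over those genes. This scale understates the change of low genes. Functions were tested on simulated data. Whole reads were recovered from the FPKM steps (tolerance 0.01) with the shortest length that gave whole numbers, so they are lower bounds. Tables were made with Python 3.11.15, pandas 2.3.3, numpy 2.4.6, scipy 1.17.1 and matplotlib 3.10.9. The replication genes, their roles and the related lists were chosen with earlier results of these data known. Within each role the genes with an unadjusted p under 0.05 were named, at most 4 by log2 difference, with the 3 highest and 3 lowest in control level, and at most 3 from each related list. Remaining replication genes are given to account for all 51, and genes named outside this rule were chosen after their values were seen. PECAM1, on the list of other cell type markers, matched no identifier. Alternatives were another filter, no filter, a pseudocount of 0.1, median-of-ratios scaling, a variance trend, limma-voom on recovered reads, a replicate block and leaving out each library.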

Additional observations from a re-analysis of the deposited data

How the results depend on the processing

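Beside the main count of 27 replication genes lower at an unadjusted p under 0.05, the other filters, pseudocount, scaling, variance trend and limma-voom gave 26 to 31, with 0 higher and 0 past an adjusted p of 0.05 in each, and medians of -0.40 to -0.36. The share of all genes lower at that threshold was 6.31% to 10.1% in these fits and 8.68% in the main fit. With the replicate block the lower count was 20, all of them among the 27, beside 5.93% of all genes lower in that fit. Deviations of libraries with the same replicate number correlated at -0.0031 across all genes tested and at 0.075 over the replication genes. Whether libraries of the same number were handled together is not given by the labels and was not tested. Leaving out a library gave 6 to 42 lower, 0 to 2 higher, 0 to 17 past the adjusted threshold and a median of -0.45 to -0.34. Without KIF26B siRNA replicate 1 the sign turned for 8 genes, LIG1, ORC1, ORC6, POLA2 (0.12, against -0.28 without replicate 2), PRIM1, RPA3, RRM1 and RRM2. Without replicate 2 it turned for GINS3 (0.19, against -0.28 without replicate 1) and TIPIN, without control siRNA replicate 1 for TIPIN, and without control siRNA replicate 2 for GINS3 (0.03). Among the replication genes, POLA2, GINS3 and RNASEH2A had the fewest reads, 37 to 265 per library.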
